A study of Mus musculus with 2 samples.

Results

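GATA4 peaks in gene deserts are the GATA4 binding sites of mouse liver that lie far from any protein-coding gene. A peak was counted when its summit, the position of strongest enrichment, lay outside every protein-coding gene of GENCODE mouse release 21 and more than 100 kb from the nearest protein-coding transcription start site. Of 24050 peaks on chromosomes 1 to 19 and X, 2170 met this rule, which is 9.02% (95% Wilson interval 8.67 to 9.39%). The rule used position only, so signal, replicate support and sequence at the summits were not part of the choice.

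The samples were whole livers of healthy adult mice, in which DNA bound by GATA4 was recovered with an antibody and sequenced (ChIP-seq). There was 1 group of 2 samples, with no genotype or treatment named and no second condition to compare. Age is listed as unknown and sex as not collected, and both samples have the same biosample and donor identifiers, and what separates them may be technical only. Peaks came from the authors' optimal list, in which peaks pass a threshold on the irreproducible discovery rate (IDR), a measure of whether a peak ranks alike in 2 inputs. Whole liver mixes cell types, and a peak bound in few cells cannot be told apart from one bound weakly in many. Summits within 10 kb of a gene were found at all 8 marker genes examined, namely Alb, Apoa1, Apoa2 and Ttr of hepatocytes and Stab2, Clec4g, Lyve1 and Cdh5 of endothelium, with 7 summits at Stab2. Of all protein-coding genes, 47.6% had a summit within that distance.

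GATA4 is a zinc finger transcription factor that binds short sequences with the core GATA. It acts in the heart, the gut and the liver, where it is known for its role in the identity of sinusoidal endothelial cells, the lining of the liver's capillaries. A gene desert is a long stretch of the genome without protein-coding genes. Many deserts lie beside genes of development and hold enhancers, regulatory elements that can act on a start site over long distances.

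The 12 desert peaks with the strongest signal mostly held a GATA site, defined as A or T, then GATA, then A or G, read on either strand. The 101 bases centred on the summit follow for 8 of these 12 and for 3 summits described later, because the number and spacing of sites in them runs through the results. Sequences are the plus strand of the mouse reference GRCm38 (mm10) as given by RefSeq, and capitals mark GATA sites, which read T or C, then TATC, then A or T where the site is on the other strand. Of the 12 strongest, 5 held 1 GATA site, 5 held a pair and 2 held none.

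Opa1 to Hes1, chr16:29946057-29946157, rank 12: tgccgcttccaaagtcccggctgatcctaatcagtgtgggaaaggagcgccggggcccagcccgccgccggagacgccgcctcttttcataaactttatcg
Foxo1 to Cog6, chr3:52653126-52653226, rank 27: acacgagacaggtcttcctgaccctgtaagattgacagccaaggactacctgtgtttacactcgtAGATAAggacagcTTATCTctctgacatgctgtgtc
Tle4 to Psat1, chr19:14742521-14742621, rank 52: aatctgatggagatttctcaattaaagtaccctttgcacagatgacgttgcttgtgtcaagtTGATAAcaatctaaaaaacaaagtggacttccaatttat
Cemip2 to Trpm3, chr19:21914263-21914363, rank 75: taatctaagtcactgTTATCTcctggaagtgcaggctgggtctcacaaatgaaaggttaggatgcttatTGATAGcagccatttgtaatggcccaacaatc
Ets2 to Psmg1, chr16:95861426-95861526, rank 76: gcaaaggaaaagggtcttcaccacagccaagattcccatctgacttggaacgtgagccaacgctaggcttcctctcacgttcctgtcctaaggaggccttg
Egln3 to Sptssa, chr12:54460347-54460447, rank 95: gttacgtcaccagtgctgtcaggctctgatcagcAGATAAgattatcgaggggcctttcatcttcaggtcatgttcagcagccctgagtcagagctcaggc
Gli2 to Inhbb, chr1:119191312-119191412, rank 184: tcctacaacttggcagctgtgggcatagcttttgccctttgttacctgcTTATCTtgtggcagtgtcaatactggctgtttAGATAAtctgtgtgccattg
Tgfbr2 to Rbms3, chr9:116338350-116338450, rank 204: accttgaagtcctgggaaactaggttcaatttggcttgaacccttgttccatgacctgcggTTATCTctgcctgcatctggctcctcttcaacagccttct
Wwox to Maf, chr8:115554331-115554431, rank 2664: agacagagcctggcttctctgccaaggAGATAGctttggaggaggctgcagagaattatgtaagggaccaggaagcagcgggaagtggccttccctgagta
Nr2f2 to Gm10295, chr7:71093420-71093520, rank 316: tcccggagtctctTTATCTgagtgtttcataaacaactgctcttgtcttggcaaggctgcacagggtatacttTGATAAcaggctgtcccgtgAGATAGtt
Cntnap5b to Cdh20, chr1:102517975-102518075, rank 17299: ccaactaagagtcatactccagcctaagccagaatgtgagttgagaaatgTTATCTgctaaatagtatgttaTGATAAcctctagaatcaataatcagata

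Each peak is named by the protein-coding genes on its left and right, and its rank is by the signal score of the optimal list. The Foxo1 to Cog6 summit carries 2 sites on opposite strands close together. The Opa1 to Hes1 and Ets2 to Psmg1 windows have no capitals, and the Opa1 to Hes1 window is rich in G and C.

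GATA4 summits were sparse in the deserts and became sparser with distance from genes. Desert sequence made up 805 Mb of the 2559 Mb of assembled sequence (31.5%) and held 2.70 summits per Mb, against 12.5 per Mb in the rest of the genome. Desert summits lay a median of 188627 bp from the nearest protein-coding start site. Of the 2170, 1005 were over 200 kb away, 197 over 500 kb and 38 over 1000 kb. The sequence itself also changed, from 42.8% G and C outside deserts to 39.4% in them, and the part of base composition in the density was not tested.

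The density of intergenic summits fell both before and after 100 kb. Intergenic summits ran at 12.1 per Mb between 1 and 10 kb from a start site, 8.94 between 10 and 50 kb and 7.28 between 50 and 100 kb. Past the threshold they ran at 5.09 per Mb between 100 and 150 kb, 4.90 between 150 and 200 kb and 3.19 between 200 and 300 kb. Farther out they ran at 2.03 per Mb between 300 and 500 kb, 0.909 between 500 and 1000 kb and 0.468 beyond 1000 kb. Whether the fall from 7.28 to 5.09 per Mb is a step at the threshold was not tested. Each replicate's own thresholded list also fell over this range, replicate 1's from 2.38 to 0.259 per Mb and replicate 2's from 13.0 to 0.345 per Mb. Replicate 1's list was lowest in the 500 to 1000 kb bin, at 0.229 per Mb. Just inside the threshold, at 100 to 110 kb, lay 161 summits, of which 55.9% had a GATA site and 18.6% were in replicate 1's list. Just outside, at 90 to 100 kb, lay 197, with 55.3% and 19.8%. The amount of sequence in these bands was not measured, so these are counts and not densities.

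**Figure D1:**
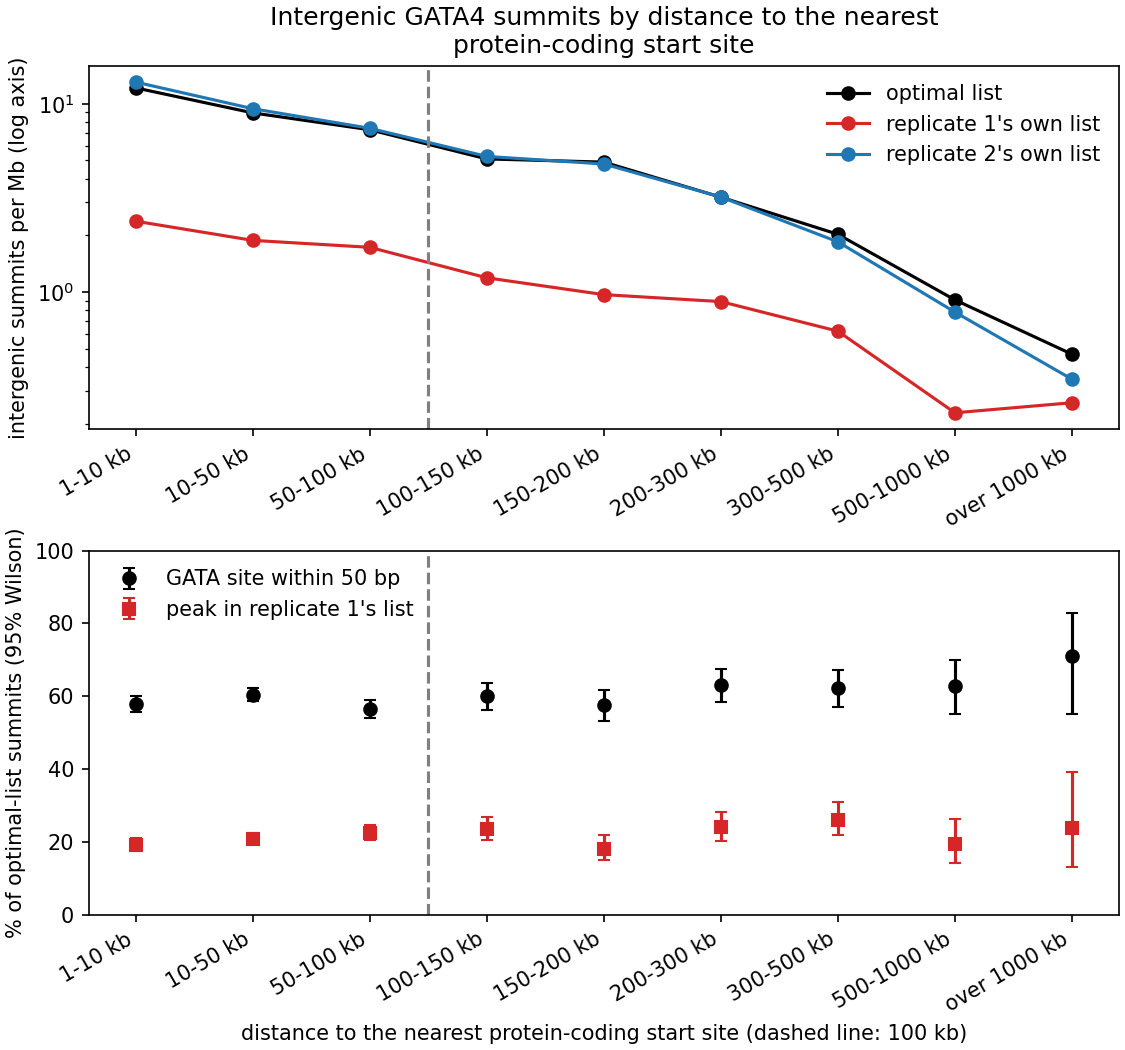
Top, intergenic GATA4 summits per Mb of intergenic sequence (log axis) by distance to the nearest protein-coding start site, for the optimal list and each replicate's own list; bottom, the percentage of optimal-list summits with a GATA site or in replicate 1's list, with 95% Wilson intervals. Density of the optimal list falls from 12.1 to 0.468 per Mb, while the share with a GATA site stays between 56.6 and 71.1%.

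The share of summits with a GATA site did not fall with the density. It was 60% (408 of 680, 95% Wilson interval 56.3 to 63.6%) at 100 to 150 kb, 63.1% (58.6 to 67.4%) at 200 to 300 kb and 71.1% (55.2 to 83.0%) for the 38 summits beyond 1000 kb. The intervals of all desert bins overlapped. Replicate 2's list held 84.0% of the summits at 100 to 150 kb and 60.5% of those beyond 1000 kb, and the median rank of those 38 was 16319.5.

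Chromosome 13 had the densest deserts and chromosome X the sparsest. On chromosome 13 there were 208 desert summits, 5.30 per Mb, and they were 18.3% of that chromosome's peaks. Chromosome 10 followed with 161 (4.11 per Mb) and chromosome 16 with 124 (3.70 per Mb). Chromosome X had 26 in 58.8 Mb of desert, 0.442 per Mb. They were 8.5% of that chromosome's 306 peaks, close to the 9.02% over all chromosomes, so its low number of peaks was not particular to deserts. None of these 26 was in replicate 1's thresholded list. Of the 306 peaks on the whole of chromosome X, which include these 26, 39 (12.7%) were in it. An approximate upper limit for 0 of 26, taken as 3 counts, is 11.5%. This is below 12.7% but close to it, and the difference was not tested. Over all chromosomes, 22.5% of desert peaks were in replicate 1's list. Of the 26, 17 were in replicate 2's list and 20 overlapped a peak of replicate 1's relaxed list, which holds peaks and background before any threshold.

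**Figure D2:**
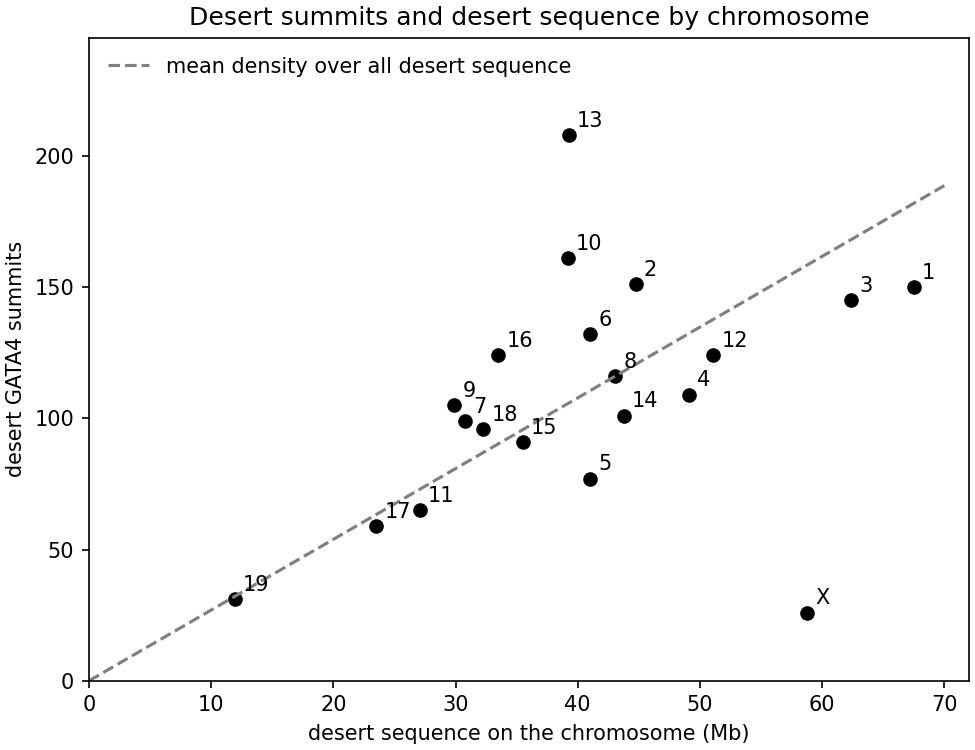
Desert GATA4 summits (y axis, number) against desert sequence (x axis, Mb), 1 point per chromosome; the dashed line is the mean over all desert sequence, 2.70 per Mb. Chromosome 13 stands above the line with 208 summits and chromosome X below it with 26.

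Within chromosomes the summits lay in a minority of desert stretches. A stretch is an unbroken run of sequence that meets the rule between 2 neighbouring protein-coding genes. There were 1978 stretches, and 35.4% of them (701) held at least 1 summit. A single summit was found in 291 stretches. The 121 stretches with 5 or more held 1117 summits, 51.5% of the total, and the 100 richest stretches held 46.6%. Stretches with a summit were longer, with a median of 334 kb against 117 kb, and their base composition was close, at 39.6% and 39.3% G and C. A longer stretch gives summits more room, and the part of length in these shares was not tested.

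The genes beside the richest stretches had varied roles. Kif2a, a kinesin, and Ndufaf2, an assembly factor of respiratory complex I, flanked 24 summits in 822 kb of chromosome 13, with a GATA site at 11. Replicate 1's list held 6 of them and replicate 2's 20. Adamts5, a protease of the extracellular matrix, and N6amt1, a methyltransferase, also flanked 24, in 1252 kb of chromosome 16, and 17 of those had a GATA site. Adgrl2 and Adgrl4, adhesion receptors of which Adgrl4 is known from endothelium, flanked 22 in 2247 kb. These 3 stretches together held 70 summits, only 3.23% of the total, and the first 10 held 198 (9.12%), so no single locus made up the set.

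The most crowded of the 10 was the short stretch between Wwox, an oxidoreductase, and Maf, a transcription factor known from liver sinusoidal endothelium. It held 20 summits in 254 kb, or 78.6 per Mb. Its strongest peak, shown above with 1 GATA site, ranked 2664, with a signal score of 21.5 in replicate 1 and 59.3 in replicate 2, and it was in both replicates' thresholded lists. It lay 153 kb from the Maf start site. In all, 13 of the 20 summits had a GATA site, while the lists of replicates 1 and 2 held 6 and 17. Some summits lay very close together, as at 187.19 and 187.389 kb from the left edge and at 236.139 and 236.415 kb. All of these were in replicate 1's list, so the counts are of summits and not of separate regions.

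Nr2f2 encodes COUP-TFII, a nuclear receptor that specifies veins. Between Nr2f2 and the predicted gene Gm10295 lay 19 summits, and between Gm10295 and Mctp2 another 18, so that a predicted gene divided a run of 37 summits. The best peak on the Nr2f2 side, with the 3 GATA sites shown above, ranked 316 and scored 37.2 in replicate 1 and 116 in replicate 2. The best on the Mctp2 side ranked 283, scored 53.0 and 105, and had no GATA site. Both peaks were in both lists.

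The other 4 of the first 10 stretches held 17 or 18 summits each. They were Foxo1 to Cog6 (18, with Foxo1 a forkhead factor of insulin signalling), Cd83 to Jarid2 (18, with Jarid2 a partner of Polycomb), Marcks to Rfpl4b (18), and Plk2 to Actbl2 (17, with Plk2 a kinase). Replicate 1's list held between 4 and 9 of the summits in each of the 10 stretches, and replicate 2's list between 14 and 20.

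**Figure D3:**
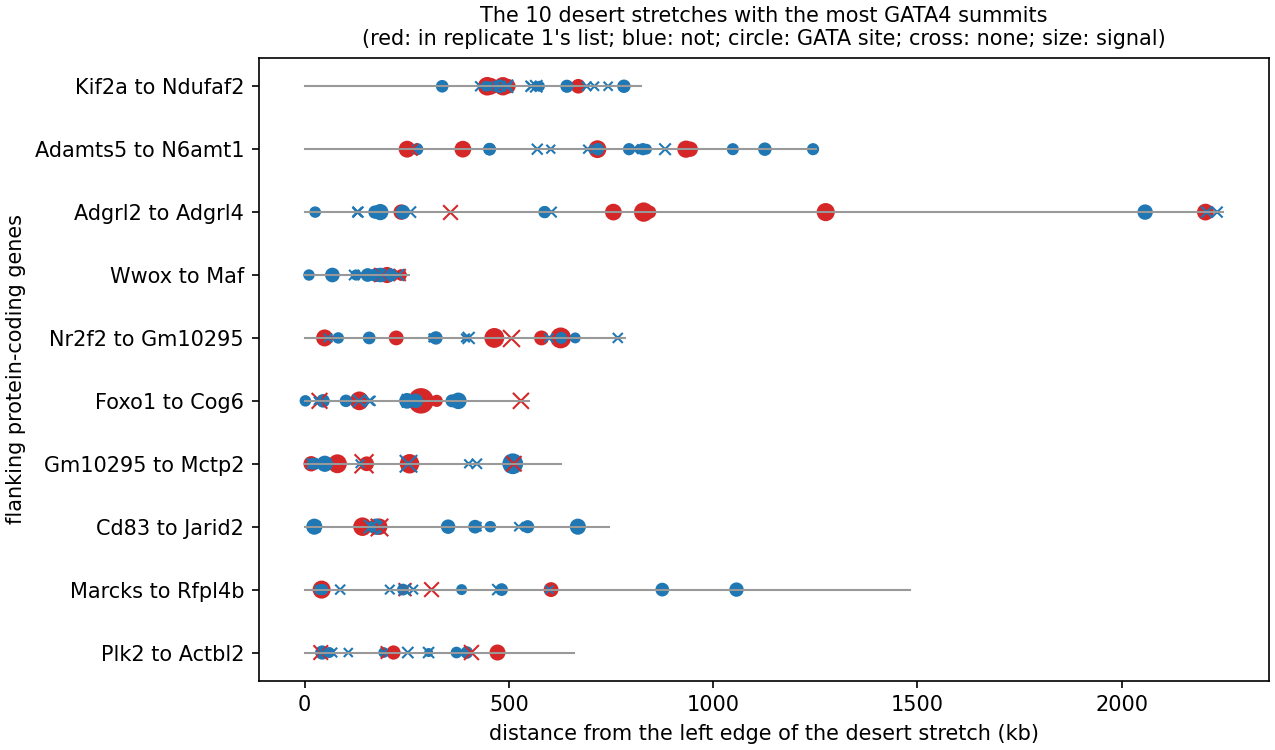
The 10 desert stretches with the most GATA4 summits, drawn from their left edge (x axis, kb); red marks are peaks in replicate 1's list, blue marks are not, circles have a GATA site, crosses do not, and larger marks have higher signal. The 20 summits of the Wwox to Maf stretch lie within 254 kb, and the 22 of the Adgrl2 to Adgrl4 stretch spread over 2247 kb.

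Chained at gaps of 50 kb or less, 971 summits (44.7%) fell into 206 clusters of 3 or more, and 725 (33.4%) stood alone. The largest cluster, 18 summits over 115 kb, was in the Wwox to Maf stretch. Next came 15 between Irf2bp2 and Tomm20, 14 between Klf14 and Mkln1, 13 between Kif2a and Ndufaf2, 13 between Ets1 and Kirrel3 and 12 between Prok2 and Rybp. Summits in clusters had a GATA site less often than lone ones, 56.6% (95% Wilson interval 53.5 to 59.7%) against 67.4% (64.0 to 70.8%). Peaks in clusters were in replicate 1's list more often, 25.4% (22.8 to 28.3%) against 17.9% (15.3 to 20.9%). Neither pair of intervals overlapped, and no test was run on these shares because neighbouring summits share a locus. Neighbouring peaks can also overlap the same peak of replicate 1's list, and the part of this in the share for clusters was not tested. Peaks in clusters were also stronger, with a median rank of 10182 against 13200 for lone ones, and the part of rank was not tested.

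Within tight chains the share with a GATA site was higher at the strongest summits than at their companions. Of 384 chains of 2 or more summits with gaps of at most 10 kb, the strongest summit had a GATA site in 254 (66.1%, 95% Wilson interval 61.3 to 70.7%). Among their 556 companions 267 did (48.0%, 43.9 to 52.2%). The strongest members had a median rank of 5452 and the companions 15450.5. They were chosen by rank, and over all desert peaks the GATA share also fell with rank. It was 77.9% in the strongest quintile of desert peaks and 42.2% in the weakest. The part of rank in the difference was not tested, and the intervals take no account of which summits share a chain.

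Desert peaks were ranked much like other peaks. Their ranks ran from 12, with a median of 11581.5 of 24050, and 7 were in the first 100 and 84 in the first 1000. The strongest quintile of the optimal list, 20% of all peaks by construction, held 21.2% of the desert peaks (461). It held 23.1% of intergenic peaks 1 to 100 kb from a start site and 21.2% of peaks inside genes but over 100 kb from a start site. Neither difference passed Fisher's exact test (two-sided, Benjamini-Hochberg over 8 tests, adjusted p = 0.142 and 1). Peaks are not replicates of a condition, so these p-values describe the lists.

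The replicates supported the desert peaks unequally, as they did all peaks. Replicate 1's thresholded list, with 4287 peaks, overlapped 488 desert peaks (22.5%, 95% Wilson interval 20.8 to 24.3%), against 17% of all peaks. Replicate 2's, with 26314 peaks, overlapped 1729 (79.7%, 77.9 to 81.3%), against 82.5% of all peaks. Both lists held 447 (20.6%), against 16.3% of all peaks, and neither list held 400 (18.4%), against 16.7%. The authors' conservative list held 1017 (46.9%), against 38.2%.

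Of the shares in replicate 1's list, replicate 2's list and both lists, 1 differed from the other intergenic peaks by Fisher's exact test. Replicate 2's list held 83.2% of the 6404 intergenic peaks 1 to 100 kb from a start site, 3.54 percentage points more than of desert peaks (Fisher's exact test, adjusted p = 0.00186). Among peaks with an IDR of 0.01 or less the gap was -1.62 points and no longer passed Fisher's exact test (adjusted p = 0.123). Replicate 1's list held 20.7% of those intergenic peaks (adjusted p = 0.142) and 18.8% of the 1123 in-gene peaks (adjusted p = 0.0607), neither of which passed Fisher's exact test. The share in both lists, 19.8% and 17.9% in those groups, did not pass Fisher's exact test either (adjusted p = 0.56 and 0.142).

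Taken list by list, deserts held more of the short list than of the long one. Of replicate 1's own peaks 12.9% were in deserts (551, 95% Wilson interval 11.9 to 13.9%), and of replicate 2's 8.05% (2118, 7.73 to 8.38%). With peaks within 1 kb of a start site left out, the shares were 13.9% (12.9 to 15.0%) and 10.8% (10.3 to 11.2%). Across the quintiles of the optimal list by signal the desert share was 9.58% in the strongest and 8.65% in the weakest. Without peaks within 1 kb of a start site the order turned, with 11.2% (10.2 to 12.2%) in the strongest and 12.4% (11.3 to 13.5%) in the weakest.

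Most desert peaks that missed replicate 1's thresholded list had some signal in that sample. Of those 1682 peaks, 1327 (78.9%) overlapped a peak of replicate 1's relaxed list. Of all 2170 desert peaks, replicate 1's relaxed list overlapped 1815 (83.6%) and replicate 2's 2159 (99.5%), although each relaxed list has 300000 lines, including background. Of all peaks of the optimal list, replicate 1's relaxed list overlapped 72.1% and replicate 2's 99.9%. For replicate 1's the share was 78.8% of intergenic peaks 1 to 100 kb from a start site. It was 81.8% of in-gene peaks over 100 kb from one, and these differences were not tested. Over the desert peaks found in each relaxed list, the median signal score was 11.4 in replicate 1 and 29.0 in replicate 2. Over the 1804 peaks found in both, the scores had a Spearman correlation of 0.498, a description across peaks of the same 2 libraries.

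**Figure D4:**
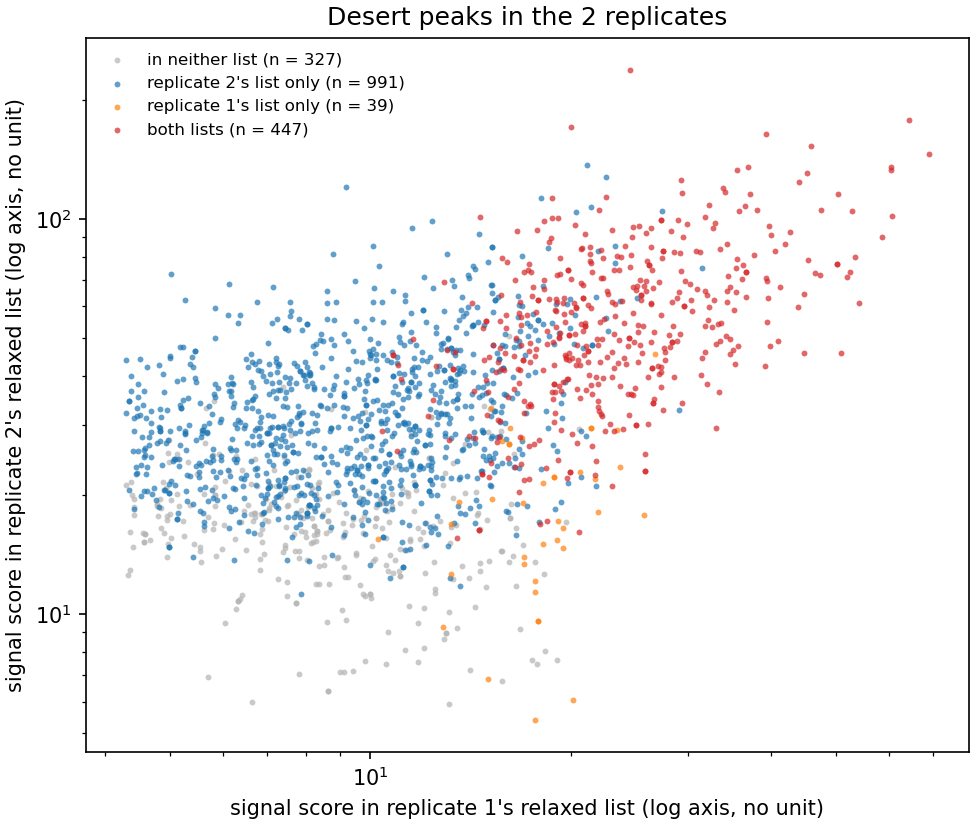
Signal score of each desert peak in replicate 1's relaxed list (x axis, log scale, no unit) and replicate 2's (y axis, log scale, no unit), for the 1804 desert peaks found in both, coloured by the thresholded lists that hold them. Peaks in both lists (447) have median scores of 22.4 and 53.3 in replicates 1 and 2 and those in neither (327) of 8.52 and 16.6, and the groups overlap: scores in neither reach 20.6 and 50.5.

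All 12 of the strongest desert peaks were in both replicates' thresholded lists and in the conservative list. The first lay between Opa1, a GTPase of mitochondrial fusion, and Hes1, a repressor downstream of Notch, at chr16:29945910-29946295, 119 kb from the Hes1 start site. Its signal score was 24.5 in replicate 1 and 238 in replicate 2, the highest replicate 2 score of the 12, while 10 of the 12 had a higher replicate 1 score. Its window was 61.4% G and C with no GATA site, and it lay in the non-coding gene Gm26569, 647 bp from a non-coding start site. The other of the 12 without a GATA site, between Ets2, an ETS-family factor, and Psmg1, a proteasome assembly chaperone, scored 39.3 and 164 and lay in the long non-coding gene 1600002D24Rik.

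Other peaks of the 12 were strong in both samples. The Foxo1 to Cog6 peak scored 64.4 in replicate 1 and 178 in replicate 2, 300 kb past Foxo1. The Tle4 to Psat1 peak, 145 kb from the start of the corepressor gene Tle4, scored 68.9 and 146. The Cemip2 to Trpm3 peak scored 60.6 and 136, and the Rbms1 to Tank peak 60.4 and 133. These 4 had the highest replicate 1 scores of the 12, and each had 1 or 2 GATA sites.

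The rest of the 12 lay beside genes of several kinds. The peak between Fam19a2 and the monocarboxylate transporter gene Slc16a7 scored 45.9 in replicate 1 and 152.4 in replicate 2. The peak between Egln3, an oxygen-sensing prolyl hydroxylase, and Sptssa scored 20.01 and 171. The peak between Fam198b and the glutamate receptor gene Gria2 scored 45.3 and 130. The peak between Gli2, a factor of Hedgehog signalling, and Inhbb, an activin subunit, scored 37.0 and 135. The peak between Lmo4, a LIM-only protein, and Hs2st1, an enzyme of heparan sulfate synthesis, scored 35.6 and 133. The last, between Tgfbr2, a TGF-beta receptor, and Rbms3, scored 50.3 and 115. Replicate 2 scored higher in all 12, and the scores of the 2 lists are not on a common scale.

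The 5 desert summits farthest from any start site ranked low. The farthest, 2250.5 kb from the Cdh20 start in the stretch between the neuronal genes Cntnap5b and Cdh20, ranked 17299 and scored 8.34 in replicate 1 and 21.3 in replicate 2. It was in neither replicate's thresholded list, although its window shown above has 2 GATA sites. A summit between Hace1 and Grik2 was in replicate 2's list only (rank 16501), as was one between Kcnv1 and Csmd3 (rank 23389), where replicate 1's relaxed list had no peak. Summits between Nudt12 and Efna5 (ranks 23048 and 23777) were in neither list and overlapped the same relaxed peaks.

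A GATA site lay within 50 bp of 1321 of the 2170 desert summits (60.9%, 95% Wilson interval 58.8 to 62.9%), against 52.8% of all peaks. Windows of the same length centred 500 bp to either side of these summits held one in 20.05% (870 of 4340), 40.8 percentage points fewer (Fisher's exact test, two-sided, Benjamini-Hochberg over 10 motifs, adjusted p = 9.23e-232). The flanks were 42.6% G and C and the summits 46.4%. Each flank belongs to a summit, and Fisher's exact test took no account of this pairing, here or for the other motifs. The nearest site was a median of 17.5 bp from the summit, and 758 of the 1321 (57.4%) had it within 20 bp. The form AGATAA was at 693 summits and TGATAA at 431. The forms ending in G were less common, with AGATAG at 259 and TGATAG at 162.

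Desert summits were not set apart from other distal summits by this site. It was present at 58.8% (57.6 to 60.04%) of intergenic summits 1 to 100 kb from a start site and 61.2% (58.3 to 64.0%) of in-gene summits beyond 100 kb, and neither difference passed Fisher's exact test (adjusted p = 0.559 and 1 over 20 tests). The first gap differed between lists. Replicate 1's list is also much shorter, with 4287 peaks against 26314, so library and list length cannot be told apart. The gaps were not tested against each other. It was 2.04 points in the optimal list, 4.85 points in replicate 2's own list (Fisher's exact test, adjusted p = 0.00083) and turned to -3.33 points in replicate 1's (adjusted p = 0.648).

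Sites and support mostly went together among the desert peaks. There were 849 summits with 0 sites, 1032 with 1, 246 with 2 and 43 with 3 or more. Replicate 1's list held 14.4%, 25.6%, 33.7% and 44.2% of them in that order, and their median ranks were 14695, 9739.5, 8234.5 and 10469. A GATA site was at 75.6% of the peaks in both lists and 48.0% of those in neither. By quintiles of the desert peaks from strongest to weakest, the share with a site was 77.9%, 68.2%, 62.4%, 53.7% and 42.2%. In the same order the share in replicate 1's list was 71.0%, 23.7%, 7.83%, 3.46% and 6.45%, so it did not fall at the last step. Windows with a site were 45.4% G and C and those without 48.0%, and the parts of signal and base composition were not tested.

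Other motifs were searched in the same windows on both strands. An ETS core (A or C, then GGAA, then A or G) was at 45.6% of desert summits, against 46% of all peaks and 25.8% of flank windows (adjusted p = 2.31e-56 by Fisher's exact test). It was less frequent with a GATA site (43.4%) than without one (49.1%). The nuclear receptor site AGGTCA was at 13.6% against 11.8% of all peaks and 6.59% of flank windows (adjusted p = 2.24e-19 by Fisher's exact test). The E-box CAGCTG was at 7.79% against 7.68% of all peaks, and the C/EBP form TTGCNNAA at 7.42% against 5.87%.

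The rarer motifs were the forkhead form (T, then A or G, then TTTAC) at 5.21% against 3.87% of all peaks and AP-1 (TGANTCA) at 4.42% against 3.54%. The HNF4 form (CAAAGT, then C or T, then CA) was at 1.43% against 0.973%. Each was above its flanks by Fisher's exact test, the weakest being AP-1 at 3.23% in the flanks (adjusted p = 0.0167). An unrelated control (A or T, then TATGC) was at 5.02% against 3.89% of all peaks and lay below its flanks, at 8.02% (Fisher's exact test, adjusted p = 9.3e-06). The families are different words, although neighbouring matches can share bases, and a match does not show that the factor binds.

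Of the 10 motifs, the SP form GGGCGG differed between desert and nearer intergenic summits. It was at 1.94% (42) of desert summits against 9.33% of all peaks, 4.15% of intergenic summits within 100 kb (Fisher's exact test, adjusted p = 9.19e-06) and 1.78% of in-gene summits beyond 100 kb. Summit windows were 46.4% G and C in deserts and 49.1% in the nearer intergenic group, and the part of base composition was not tested. Between the same groups in replicate 1's own list the gap was -0.0888 points (Fisher's exact test, adjusted p = 1), and in replicate 2's own list it was -2.59 points (adjusted p = 1.38e-06).

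**Figure D5:**
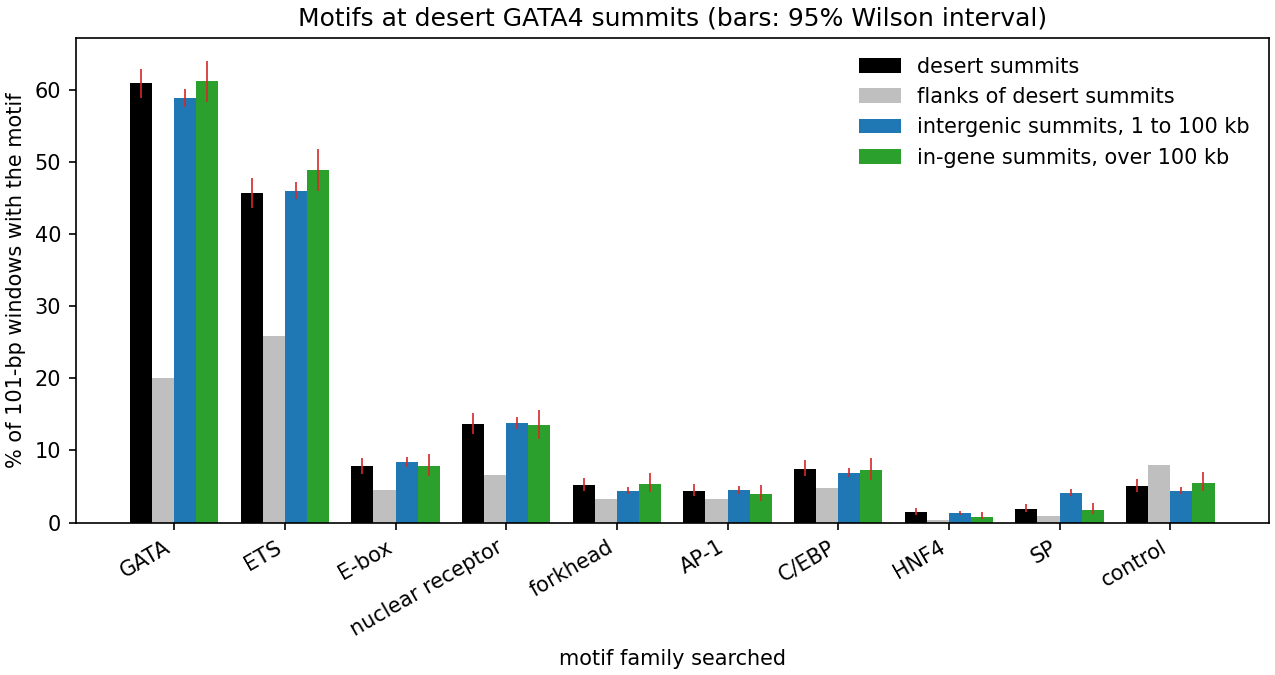
Percentage of 101-bp windows with each motif (y axis) at desert summits, their flanks, intergenic summits 1 to 100 kb from a start site and in-gene summits over 100 kb away; lines are 95% Wilson intervals. GATA sites are at 60.9% of desert summits and 20.05% of flanks, and the 3 summit groups are close for every motif but SP.

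Desert summits were rarer in repeats and denser in non-coding genes than desert sequence at large. The base at the summit was in soft-masked, repetitive sequence for 202 (9.31%), whereas 39.5% of desert sequence was masked. The share was 8.28% for all summits and 9.45% for intergenic summits within 100 kb, both close to that of desert summits. GATA sites were at 58.4% of the masked and 61.1% of the unmasked summits. Genes other than protein-coding ones covered 10.9% of desert sequence and held 450 summits (20.7%), or 5.13 per Mb against 2.40 per Mb outside them. Of these, 432 were in long non-coding genes. Only 86 desert summits lay within 1 kb of a non-coding start site, and these windows were 51.6% G and C, 51.2% had a GATA site and 5.81% had the SP motif.

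The genes beside the deserts were then described by lists. Of 3229 protein-coding genes next to a desert stretch, 39.8% (1284) had at least 1 summit in it, with 2.70 summits per Mb. Listed genes lay beside longer stretches than the median of 181 kb, which gives a summit more room, so density is given with each count. The lists were chosen with results of these data known, and no list was tested. A flanking gene is a neighbour and not a shown target, and another gene's start site can be nearer to the peak.

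Of 31 genes of sinusoidal endothelium, 11 were next to a desert stretch and 8 of them (72.7%) had a summit in it, at 9.56 summits per Mb. Maf, with 27 summits on its 2 sides, made up much of this, and without it the density was 6.08 per Mb. Plpp3, a lipid phosphatase, had 13 summits, Nrp1, a co-receptor for VEGF, had 8, and Bmp2, a ligand that acts on hepatocyte iron control, had 6. A GATA site was at 8 of the 13 at Plpp3, 5 of the 8 at Nrp1 and 4 of the 6 at Bmp2. The strongest at Bmp2 lay 121 kb from its start and scored 35.3 in replicate 1 and 42.9 in replicate 2. Rspo3, an amplifier of Wnt signalling, had 2 summits, both with a GATA site, and its strongest lay 286 kb from its start with scores of 19.02 and 53.3. Meis2, a homeobox factor, had 1, in replicate 2's list only.

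Of 36 hepatocyte and liver transcription factor genes, 14 were next to a desert and 11 (78.6%) had a summit, at 4.84 per Mb. The most, 12, were beside Nfib, a nuclear factor I gene, with 10 having a GATA site and 6 in replicate 1's list. Onecut1, a liver cut-homeobox factor, had 8, Nr5a2, the bile acid regulator LRH-1, had 7, and Ppargc1a, a coactivator of fasting metabolism, had 6. Prox1, a regulator of hepatocytes and lymphatic endothelium, had 3 and Esrrg had 2.

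Of 84 developmental transcription factors, 60 were next to a desert and 41 (68.3%) had a summit, at 4.57 per Mb. Nr2f2 had the most with 29, and 4.18 per Mb remained without it. Ets1, an ETS factor of endothelium and lymphocytes, had 14, Jun, an AP-1 subunit, had 12, Sox5 had 8, Sox11 had 6 and Klf4 had 4. A GATA site was at 8 of the 14 at Ets1, 3 of the 12 at Jun, 6 of the 8 at Sox5 and 2 of the 4 at Klf4. The Sox11 peak ranked 217, 481 kb from its start, and scored 44.0 in replicate 1 and 124 in replicate 2, and all 6 summits there had a GATA site. The strongest peaks at Ets1, Jun and Klf4 were in the list of replicate 2 only.

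Of 53 growth factor and guidance genes, 41 were next to a desert and 29 (70.7%) had a summit, at 2.47 per Mb, below the 2.70 per Mb of all desert sequence. The activin subunit genes Inhbb and Inhba had 8 each and the chemokine gene Cxcl12 also had 8. A GATA site was at 3 of the 8 at Inhbb, 7 at Inhba and 5 at Cxcl12. The Cxcl12 peak ranked 859, 272 kb from its start and 179 kb from that of Tmem72, and scored 54.2 in replicate 1 and 61.3 in replicate 2. Pdgfc, a platelet-derived growth factor, had 3 and Tgfb2, a TGF-beta ligand, had 2. Bmp2, given above, is also on this list.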

How the data were processed

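Peaks came from lists the authors deposited on mm10, per their README tables. For aligner and peak caller, the answer is not given in the sources used here. Each peak has 2 scores deposited by the authors. The first rises with -log2 of the IDR, by 125 per unit up to 1000, judging from the values, and the second is the caller's signal score, which has no unit. The optimal list (24083 lines, of which 33 off chromosomes 1 to 19 and X were left out) is from an earlier run of the authors' processing and the replicates' thresholded lists from a later one. Read depth is unknown, and intervals cover counting of peaks only. Control libraries were not analysed here.

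Summits were placed against 21755 protein-coding genes with 41219 start sites of GENCODE release 21 on GRCm38. Overlap was at least 1 shared base. Motifs were sought within 50 bp of the summit. Shares have 95% Wilson intervals and were compared with Fisher's exact test, two-sided, Benjamini-Hochberg adjusted within families of 10 flank, 20 motif and 8 support comparisons, and called at 0.05. Code was tested on simulated data (Python 3.11.15, SciPy 1.17.1, NumPy 2.4.6, pandas 2.3.3). Named genes flank the 12 strongest peaks, the 10 stretches with most summits and the 5 farthest summits, or are up to 6 per list by rank of their strongest peak. Alternatives changed the distance, the list, the IDR, the overlap, the motif and the chaining. Those on masked sequence, on replicate 2's list against the nearer group and on the SP motif were chosen after seeing the data. The members and lists were chosen with earlier results of these data known.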

Additional observations from a re-analysis of the deposited data

How the results depend on the processing

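The number of desert summits was 3672 with a distance of over 50 kb and 1005 with over 200 kb, and 1027 in the conservative list. In each replicate's own list it ranged from 551 to 2118. The share with a GATA site was 63.1% beyond 200 kb, 66.7% at an IDR of 0.01 or less, 70.4% in the conservative list, 65.3% for the strongest of summits chained at 10 kb, 31.9% for AGATAA alone, 39.2% within 25 bp and 72.9% within 100 bp, and 61.4 to 65.0% in the replicates' own lists. Its excess over the flanks passed Fisher's exact test under all 5 alternatives run, AGATAA alone, both other windows, chaining and flanks at 2000 bp. The gap to intergenic summits within 100 kb ranged from -3.33 to 4.85 points in the replicates' own lists. The gap to in-gene summits, -0.30 points, ranged from -1.05 to 2.96 points in those lists, and was 1.84 for AGATAA and 1.59 with chaining, with no p under 0.05. Overlap of 50% gave 75.2% in replicate 2's list and 18.3% in both lists, and a summit inside the other peak gave 77.1% in replicate 2's list. At an IDR of 0.01 or less, 29.1% were in both lists, and the gap in replicate 2's list was -1.62 points. The SP gap ranged from -2.59 to -0.0888 points in the replicates' own lists. Clusters held 33.0% of summits when chained at 25 kb and 57.3% at 100 kb. For these results the cause was not tested. Of the 62 values recomputed, 37 kept their sign and call or, where untested, stayed near the main value, 18 untested ones moved further, 4 turned sign, 2 lost and 1 gained a call. No paired analysis of the samples was possible because there was only 1 group. Depth limits are not known, since the files hold no read totals.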

Other observations

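Some very long deserts held no summit. Of 226 stretches of at least 1 Mb, 88 (38.9%) were empty, against 1277 of all 1978 stretches (64.6%). Empty long ones included both sides of Pcdh7, a protocadherin of cell adhesion, with 3497 kb towards Stim2 and 3576 kb towards G6pd2. Other empty ones were the 3356 kb between Slc10a2 and Efnb2, the 3257 kb between Tenm2 and Mat2b and the 3117 kb between Diaph2 and Pcdh19 on chromosome X. The median density over the 226 was 0.594 summits per Mb and the highest 19.2, between Adamts5 and N6amt1. These 5 empty stretches were between 36.5 and 38.0% G and C, and the part of base composition was not tested.

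Of 46 cell adhesion genes found in the annotation, 44 were next to a desert and 26 (59.1%) had a summit, at 0.982 summits per Mb against 2.70 per Mb over all desert sequence. Their stretches had a median length of 1433 kb. Adgrl2, a latrophilin receptor, had 25 summits on its 2 sides, and without it the density was 0.781 per Mb. Ctnna3, an alpha-catenin, had 11 summits, of which 1 was in replicate 1's list. Pcdh17, a protocadherin, had 10, and 7 of those were in replicate 1's list while 3 had a GATA site. Cdh4 had 4, and Pcdh20 and Pcdh9 had 5 each and share their strongest peak, which has no GATA site and scored 44.9 in replicate 1 and 45.8 in replicate 2.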
